A study of Homo sapiens with 20 samples.

Results

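Antisense lincRNA records are annotated long noncoding loci whose name marks them as antisense to the gene it holds, as in linc-SLC17A6-AS. They were chosen here as the lincRNA records whose name ends in -AS and that are not flagged as pseudogenes, leaving out names built on families of developmental transcription factors such as SOX, POU, HOX and PAX. Of 7162 records named -AS, 482 were flagged and another 71 carried such a family name. The remaining 6609 made up 36.4% of 18132 lincRNA records and were drawn from 38369 records in all. They carried 5553 different names, since 1943 of them share a name with another record, and 33 lie on haplotype or unplaced sequence.

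RNA was measured in neural progenitors made from the human embryonic stem cell line H1, an established line, so every culture goes back to this single line. At the start of differentiation FGF, which keeps progenitors dividing, was taken away and BDNF, a neurotrophin, was given, and cells were collected on day 0 and after 1, 2, 4, 5, 11 and 18 days. Each day had 3 cultures except day 5, which had 2 after the submitters took out an outlier. Cells for days 5, 11 and 18 were moved on day 4 from Matrigel to wells coated with Poly-D-lysine and laminin, so time and the new substrate cannot be told apart from day 5 on. Values are FPKM, fragments scaled to the length of the transcript and to the number of mapped fragments, with 1 value per record and day over all cultures of that day. There is therefore no spread between cultures and no test: a record is called higher or lower where its log2(FPKM + 0.1) moved by at least 1, a 2-fold change, and differences on that scale understate the change of low records. The sequencing depth behind each value is unknown.

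Antisense transcripts are made from the strand that a gene does not use. They can start near the gene's promoter and run away from it, head to head, or start beyond its last exon and run into it, tail to tail, and well-studied ones can silence, slow or stabilise the transcript they face. A transcript that has been spliced carries the marks of its strand: nearly all introns removed by the major spliceosome begin with GT and end with AG, a minority begin with GC, and introns from AT to AC belong to the rare minor class. The kit used here does not mark strand, so reads from an exon of a gene and from an antisense exon over it cannot be told apart, and an assembler takes the strand of a spliced read from the ends of its intron.

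The antisense records were annotated with introns that had unusual ends. On their own strand, 9033 of their 15352 introns (58.8%) ran from GT to AG, 2755 (17.9%) from GC to AG and 2936 (19.1%) from AT to AC. The other 11523 lincRNA records had GT-AG ends in 87.9% of 41144 introns, with 5.91% GC-AG and 3.30% AT-AC, and coding records had 97.0%, 1.13% and 0.0721% of 237064. At least 1 GT-AG intron was present in 3827 of the 6609 antisense records. Of their AT-AC introns, 19.3% lay wholly inside a coding exon of the opposite strand, as did 25.7% of GC-AG and 8.68% of GT-AG introns. A run of 6 or more bases repeated at both ends of the intron, which leaves the exact junction open, was found at 5.68% of GT-AG, 18.2% of GC-AG and 15.7% of AT-AC introns. Only 4 introns of antisense records had both ends within 10 bases of those of a coding intron on the other strand.

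The junctions of 7 records are printed because the values that follow rest on them: 4 are among the most abundant antisense records and 3 among those that increased most. Each line gives the 12 bases before an intron and its first 18 bases, or its last 18 bases and the 12 bases after it, 5′ to 3′ on the record's strand in hg19, and the 2 bases at each end of the intron are in capitals.
linc-EEF1A1-AS intron start (chr6:74229172-74229601, plus strand): atatcaatggtgATaccacgttcacgctca
linc-EEF1A1-AS intron end: ccctttctggtattaaACatacctcagcag
linc-HNRNPA2B1-AS intron start (chr7:26237382-26240191, plus strand): atttcaatttttATttacattttcctcttt
linc-HNRNPA2B1-AS intron end: tgatttcaaacccgttACctccatcgcgga
linc-CCNI-AS intron start (chr4:77969225-77969449, plus strand): ttagccacacaaATaatgagagttttattt
linc-CCNI-AS intron end: taaatcagtgccacacACagaacccacatt
linc-VDAC1-AS intron start (chr5:133308550-133309464, plus strand): agtgtcagtttaATacctgcagggagaaaa
linc-VDAC1-AS intron end: ataaagaaccgatttcACacacaagcaaca
linc-SLC17A6-AS intron start (chr11:22356432-22359540, minus strand): ctcaggtctcagGTgagcaatgctgctatt
linc-SLC17A6-AS intron end: cagattctgattcaatAGgtctagagtggt
linc-MAP6-AS intron start (chr11:75315422-75355937, plus strand): agggactttgagGTaaggaactgtgagacc
linc-MAP6-AS intron end: tcttttttatattcatAGatgagctccaaa
linc-EDIL3-AS intron start (chr5:83236550-83237306, plus strand): aggtttgcaaagGTtatttgtgtcttagtt
linc-EDIL3-AS intron end: ggtatgtaatttgcaaAGgaaaatggctag

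The 4 abundant records had AT-AC introns at the junctions shown, and the 3 that increased had GT-AG introns. These 7 were picked and do not stand for their groups. Among the 10 highest records, linc-GFI1B-AS, linc-PABPC3-AS, linc-NBEAL1-AS, linc-EDARADD-AS, linc-SUMO2-AS and linc-YWHAZ-AS each had a GT-AG intron. Such an intron was present in 8 of the 10 largest increases and in 8 of the 10 largest decreases. In linc-EDIL3-AS, 10 bases at the intron's ends were repeated, and in linc-SLC17A6-AS 4 were. linc-EEF1A1-AS had 3 further introns, each from GC to AG, and no GT-AG intron. The terminal exon was only 8 bases long in linc-VDAC1-AS and 9 in linc-HNRNPA2B1-AS; a terminal exon of under 15 bases was present in 13% of the antisense records whose mean level reached 1 FPKM, in 12.6% of such other lincRNA records and in 0.331% of such coding records.

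Their exons overlapped coding exons of the opposite strand in 6010 of 6609 records (90.9%), against 10.4% of other lincRNA records. The median antisense record held 3701 exon bases, against 1530 in other lincRNA records, and the median share of an antisense record's exon bases over such coding exons was 23.1%. The coding models in the files are shorter than those of GENCODE release 44 in places: measured against GENCODE protein-coding exons, the median overlap was 34.4%, and 2419 records had at least 50% of their exon bases over them. A same-strand GENCODE lncRNA matched over at least 50 bases for 1767 records (26.7%), against 53.2% of the other lincRNA records. For 4571 antisense records, no same-strand GENCODE gene of any kind matched over at least 50 bases. Beside the named gene, 2624 records lay within it, 2197 reached across its 3′ end, 861 reached across its 5′ end and 570 covered the whole gene. Another 28 lay outside the gene, 3 were on its strand, and for 326 no coding record with that symbol was found.

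The sequence at their ends differed from that of coding genes. The polyadenylation signal AATAAA was present in the last 50 bases of 7.57% of antisense records on their own strand and in 2.72% on the other strand, against 20.5% and 4.74% of other lincRNA records and 58.3% and 7.45% of coding records. In the window from 250 bases before to 50 bases after the 5′ end, the median number of CG pairs was 4 in antisense records, 4 in other lincRNA records and 20 in coding records, and 15 or more were present in 8.17%, 15.1% and 61.2%, or in 37.7% of all windows. TATAAA on the record's strand was present in 13.6% of the antisense windows, 12.1% of other lincRNA windows and 7.05% of coding windows.

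The start windows of 2 antisense records are given next, one whose course followed a neuronal gene and one whose course differed from that of the gene in its name, with each CG pair in capitals. They hold 6 pairs in linc-SLC17A6-AS and 10 in linc-MAMDC2-AS, each fewer than the median coding window, and no TATAAA.
linc-SLC17A6-AS (chr11:22360109-22360408, hg19, minus strand): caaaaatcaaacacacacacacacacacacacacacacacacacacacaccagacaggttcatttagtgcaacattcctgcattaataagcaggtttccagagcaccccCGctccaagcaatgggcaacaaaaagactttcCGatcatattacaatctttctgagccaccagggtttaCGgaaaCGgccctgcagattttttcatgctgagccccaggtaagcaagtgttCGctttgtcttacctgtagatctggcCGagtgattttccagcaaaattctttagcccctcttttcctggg
linc-MAMDC2-AS (chr9:72874369-72874668, hg19, minus strand): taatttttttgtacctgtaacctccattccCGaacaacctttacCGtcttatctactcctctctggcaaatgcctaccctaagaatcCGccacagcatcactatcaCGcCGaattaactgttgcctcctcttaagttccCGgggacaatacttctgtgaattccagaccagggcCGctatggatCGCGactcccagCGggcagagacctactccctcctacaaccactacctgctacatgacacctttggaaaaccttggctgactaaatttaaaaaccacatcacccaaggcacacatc

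Most antisense records were scarcely measured. The median of their mean FPKM over the 7 days was 0.157, between 0.0163 for other lincRNA records and 3.02 for coding records. A mean of at least 1 was reached by 991 (15%), close to the 14.4% of other lincRNA records and below the 58.3% of coding records, while 2828 stayed under 0.1 and 516 were listed at 0 on every day. The threshold of 1 falls in a continuous range: the records just inside it were linc-TCEAL4-AS (1.00), linc-MAZ-AS (1.00) and one of the records named linc-PPM1F-AS (1.00), and those just outside were linc-IFNAR1-AS (0.999), linc-BOD1L-AS (0.999) and linc-FASN-AS (0.997). The number above 1 FPKM was 1071 on day 0, 960 on day 1, 1014 on day 2, 980 on day 4, 1020 on day 5, 1021 on day 11 and 864 on day 18. Only 74 had a mean of at least 10 and 5 a mean of at least 100. Of the 991, 602 (60.7%) had a GT-AG intron, against 57.9% of all antisense records, and 958 (96.7%) overlapped a coding exon of the opposite strand. For 49 of the 991 there was an estimate that the authors' software marked as failed on at least 1 step.

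The 2 highest records lay over exons of highly expressed housekeeping genes. linc-EEF1A1-AS (chr6:74227238-74230736, plus strand) faces EEF1A1, the translation elongation factor that delivers aminoacyl-tRNA to the ribosome, and 83.7% of its 1942 exon bases lie over the gene's exons. Its FPKM on the 7 days, in order of time here and in every such series, was 943, 1510.4, 1963, 2877, 1718, 1388 and 1448, against 1108, 2359.8, 2959, 3124, 2636, 2127 and 1389 for the EEF1A1 record. The level of the antisense record passed that of the gene on day 18 only. The gene has near-identical copies, and its record also carries the symbol EEF1A2, so both values are uncertain. linc-EEF1A1-AS took between 9.43% and 32.6% of the summed FPKM of all antisense records on each day. linc-HNRNPA2B1-AS (chr7:26237373-26240408, plus strand), with 96.0% of 226 exon bases over an RNA-binding protein gene that acts in splicing, was listed at 418, 344, 384, 353, 291, 309.9 and 202. HNRNPA2B1 itself had 421, 289, 271, 265, 265, 242 and 141, so both were highest on day 0 and lowest on day 18.

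linc-GFI1B-AS (chr9:135857765-135897253, minus strand) was listed at 2279 FPKM on day 0 and at 0 on every other day. All 6 of its steps were marked as failed, so no change is drawn from it, although its mean is the third highest. The other 7 of the 10 highest were linc-PABPC3-AS (mean FPKM 136), linc-CCNI-AS (100.9), linc-NBEAL1-AS (98.0), linc-EDARADD-AS (79.0), linc-SUMO2-AS (65.6), linc-VDAC1-AS (65.2) and linc-YWHAZ-AS (62.6). In these 7 pairs the antisense record and the gene ran nearly in parallel over the days, with correlations of their log2 levels from 0.90 for linc-NBEAL1-AS to 1.00 for linc-EDARADD-AS. Their levels differed in both directions. NBEAL1 was listed at 1.48 to 2.18 FPKM and PABPC3 at 12.2 to 26.8, below their antisense records on every day. SUMO2 (88.1 to 159) and YWHAZ (136 to 444) were above theirs on every day. linc-CCNI-AS, facing a cyclin-like protein gene, was listed at 87.2, 91.4, 108, 97.9, 96.8, 107 and 118 and CCNI at 123.3, 129.7, 156, 139, 132, 147 and 167. linc-VDAC1-AS, facing the channel of the outer mitochondrial membrane, had 113, 57.9, 60.6, 65.7, 66.1, 51.6 and 42.0 and VDAC1 53.7, 30.7, 31.1, 31.2, 30.7, 26.4 and 23.2, here with the antisense record above the gene on every day. linc-EDARADD-AS had 171, 72.1, 69.8, 74.9, 69.5, 41.4 and 54.6 and EDARADD, an adaptor of ectodysplasin signalling, 127, 55.5, 50.1, 52.8, 51.7, 30.8 and 37.9. linc-PABPC3-AS covers PABPC3, an intronless relative of the poly(A)-binding protein gene PABPC1, and near-identical copies can share reads, so its values of 133, 166, 179, 156, 128, 108 and 80.9 are uncertain. GENCODE protein-coding exons covered 100.0% of the exon bases of linc-CCNI-AS, 99.2% of linc-VDAC1-AS and 100.0% of linc-SUMO2-AS.

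The cells were checked with marker genes. All 6 neuronal markers were at least 2-fold higher on day 18 than on day 0 (DCX 5.46 to 88.0, STMN2 32.3 to 727), and their summed FPKM went from 167 to 1126. All 3 markers of dividing cells were lower (summed FPKM 323 to 59.8). Of 6 progenitor markers, NES was lower (513 to 180.4), and PAX6 (4.31 to 10.4) and HES5 (1.95 to 20.0) were higher, while the summed FPKM lay between 4639 on day 2 and 1805 on day 18. Among 4 mesenchymal markers COL3A1 (238 to 30.5) and TAGLN (367 to 19.4) were lower, ACTA2 was at most 2.11 and COL1A1 was listed at 0 on all days, for a summed FPKM between 606 on day 0 and 50.6 on day 18. The astrocyte markers GFAP, AQP4 and ALDH1L1 were at most 0.342, while S100B went from 8.68 to 4.25. OLIG1, OLIG2 and SOX10 were at most 0.196, and 2 of 3 pluripotency markers matched a record, with a summed FPKM of at most 0.116. In bulk RNA, fewer cells of a type and less RNA per cell cannot be told apart, and the part of these markers in the changes below was not tested.

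From day 0 to day 18, 71 of the 991 antisense records (7.16%) were at least 2-fold higher and 211 (21.3%) were at least 2-fold lower. Over all 14443 records with a mean of at least 1 the shares were 7.60% higher and 28.5% lower, and the difference between these shares was not tested. FPKM as a whole declined: the median log2 change of all 14443 records was -0.56, that of the antisense records -0.37, of other lincRNA records -0.39 and of coding records -0.60. Measured against the median of all records, 163 antisense records (16.4%) were higher and 78 (7.87%) lower, so the balance of the calls turned around. It did so over all 14443 records as well, with 14.6% higher and 12% lower, and over other lincRNA records, with 18.2% and 9.04%. Records with a GT-AG intron had 52 higher and 115 lower of 602, and those without had 19 and 96 of 389.

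**Figure D1:**
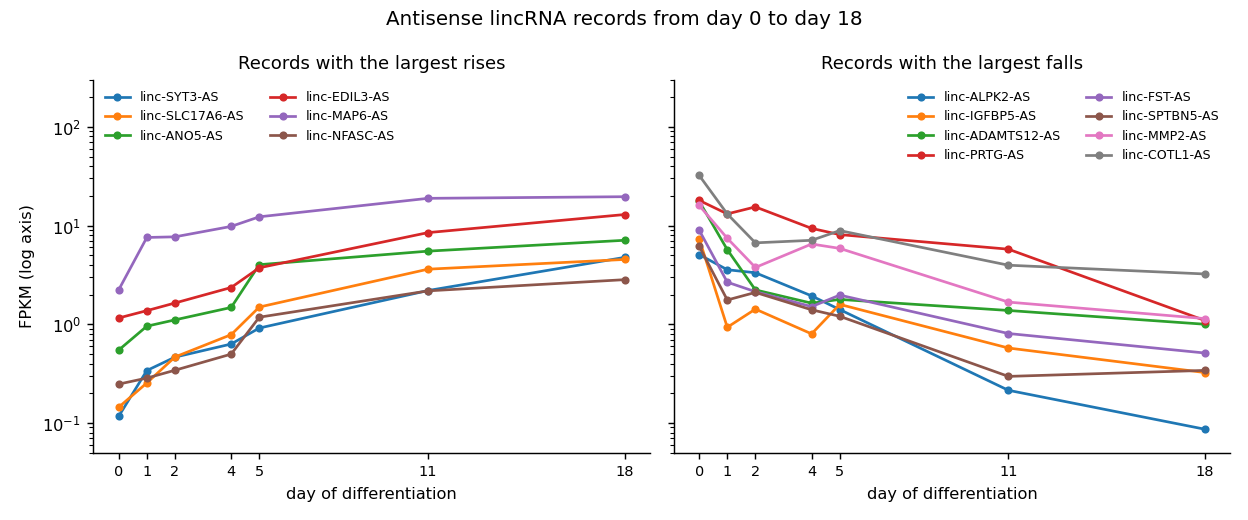
FPKM (log axis) on each sampled day for the antisense lincRNA records with the largest log2 change from day 0 to day 18, higher on the left and lower on the right; each point is the single value for that day, with no error, and records with a day listed at 0 are not drawn. All 6 increasing records drawn are highest on day 18, with linc-MAP6-AS at 19.6 and linc-EDIL3-AS at 12.9 FPKM, and 4 of the 8 decreasing records pass the midpoint of their log2 change by day 2.

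The largest increases are given with the gene in each name. linc-SLC17A6-AS (chr11:22355732-22360158, minus strand) lies across the 5′ end of SLC17A6, the vesicular glutamate transporter VGLUT2, and matches the GENCODE lncRNA SLC17A6-DT. It was listed at 0.145, 0.254, 0.466, 0.785, 1.49, 3.61 and 4.53, a log2 change of 4.24, and SLC17A6 at 1.32, 1.54, 2.41, 4.54, 8.66, 19.9 and 25.4, a change of 4.16. Record and gene were higher at every later day than at the one before, and 37.3% of the record's exon bases lie over exons of the gene.

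linc-ANO5-AS (chr11:22281615-22360302, minus strand) spans the same region on the same strand, with a 5′ end 144 bases from that of linc-SLC17A6-AS and 8 introns, each from GT to AG. It had 0.548, 0.956, 1.11, 1.48, 4.02, 5.50 and 7.09 FPKM, with its largest step from day 4 to day 5. ANO5, a membrane protein of muscle and bone at the far end of the record, had a mean under 1 and was listed at 0.179, 0.315, 0.402, 0.446, 0.502, 0.779 and 0.726.

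linc-EDIL3-AS (chr5:83236421-83239377, plus strand) faces EDIL3, a secreted integrin-binding protein, and went from 1.16 to 12.9 as EDIL3 went from 2.00 to 21.7; both log2 changes were 3.37. It overlaps the gene's exons in 56.9% of its 2200 exon bases by the files' models and GENCODE protein-coding exons in 100.0% of them. linc-MAP6-AS (chr11:75313923-75355971, plus strand) lies over MAP6, which stabilises microtubules, with 97.8% of its exon bases over the gene's exons. It had 2.23, 7.57, 7.69, 9.80, 12.3, 18.9 and 19.6, passing the midpoint of its change on day 1, and MAP6 had 14.0, 27.8, 29.4, 39.7, 45.0, 63.8 and 56.6. linc-NFASC-AS (chr1:204959768-204991952, minus strand) lies over neurofascin, an adhesion protein of the axon initial segment, with 59.1% of its exon bases over the gene's exons. It had 0.248, 0.285, 0.342, 0.498, 1.18, 2.18 and 2.83, and NFASC had 2.46, 3.82, 4.57, 6.73, 12.02, 21.4 and 22.2. Each of these records was highest on day 18, as were EDIL3 and NFASC, while MAP6 was highest on day 11. The neuronal markers increased over the same days, and their part in these values was not tested.

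linc-SYT3-AS (chr19:51135550-51166623, plus strand) had the largest increase, 4.48, with 0.117, 0.340, 0.464, 0.631, 0.916, 2.20 and 4.76 FPKM. It shares 811 exon bases on its own strand with the GENCODE protein-coding gene C19orf81, and 15.4% of its exon bases lie over exons of SHANK1, a scaffold gene of synapses. SYT3, a synaptotagmin, had a mean under 1 and was listed at 0.0326, 0.102, 0.131, 0.200, 0.250, 0.615 and 1.82. Another 2 of the 10 largest increases had days at 0 and are not read as changes. linc-C7orf42-AS (chr7:66386221-66398700) was listed at 0, 0, 3.69, 0, 0, 3.33 and 1.82, and a linc-SMARCA4-AS record (chr19:11088483-11095051) at 0, 1.56, 3.58, 3.18, 0.597, 2.98 and 0.772 with all 6 steps marked as failed. They hold 235 and 261 exon bases, of which 97.0% and 96.6% lie over exons of the gene.

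The largest decreases are given in the same way. linc-ADAMTS12-AS (chr5:33522761-33527666, plus strand), facing a secreted metalloprotease, was listed at 17.6, 5.70, 2.23, 1.64, 1.78, 1.38 and 1.00, and ADAMTS12 at 21.3, 7.02, 2.92, 2.48, 2.84, 2.04 and 1.47. The record was below the gene on every day, and 89.9% of the record's exon bases lie over GENCODE protein-coding exons, against 5.04% by the files' models. linc-MMP2-AS (chr16:55514485-55524395, minus strand), over matrix metalloprotease 2, had 16.0, 7.43, 3.76, 6.50, 5.87, 1.68 and 1.14, and MMP2 had 70.1, 34.5, 30.6, 20.2, 28.4, 8.57 and 4.37. linc-IGFBP5-AS (chr2:217536160-217560283, plus strand), matched to the GENCODE lncRNA DIRC3-AS1 and facing a binding protein of insulin-like growth factors, had 7.34, 0.932, 1.42, 0.799, 1.59, 0.575 and 0.324, and IGFBP5 had 192, 50.7, 21.4, 18.1, 34.3, 13.2 and 7.02. The largest drop came from day 0 to day 1 in both. Exons of the gene in the name lie over 81.9% of the exon bases of linc-IGFBP5-AS and 13.6% of those of linc-MMP2-AS.

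linc-FST-AS (chr5:52775175-52783306, minus strand) covers FST, which encodes follistatin, an inhibitor of activin, and had 8.99, 2.67, 2.14, 1.51, 1.97, 0.806 and 0.511 while FST had 59.6, 18.7, 15.6, 11.0, 13.7, 4.53 and 3.21. linc-ALPK2-AS (chr18:56195955-56247785, plus strand), over a kinase gene, had 5.08, 3.57, 3.32, 1.94, 1.41, 0.214 and 0.0863, and ALPK2 had 24.7, 26.5, 25.6, 14.8, 10.5, 1.39 and 0.841. linc-PRTG-AS (chr15:56030403-56032886, plus strand), over protogenin, a receptor of early neural tissue, made its largest step last, from 5.76 on day 11 to 1.09 on day 18, as PRTG went from 19.5 to 6.12. linc-COTL1-AS (chr16:84599199-84623876, plus strand), over an actin-binding protein gene, had 32.2, 13.1, 6.68, 7.09, 8.89, 3.96 and 3.23, and COTL1 had 514, 256, 217, 154, 181, 109.8 and 75.4. The share of exon bases over the named gene's exons was 15.1% in linc-FST-AS, 43.4% in linc-ALPK2-AS, 49.9% in linc-PRTG-AS and 37.1% in linc-COTL1-AS. For linc-PRTG-AS, GENCODE protein-coding exons covered 98.7%. linc-SPTBN5-AS (chr15:42184984-42193249, plus strand) went from 6.17 to 0.341 FPKM, and it lies over exons of EHD4 in 28.4% of its exon bases and over SPTBN5 in 3.32%. linc-ANP32E-AS (chr1:150195420-150199152, plus strand), with 348 exon bases, was listed at 12.4, 3.64, 0, 5.46, 0, 6.54 and 0.0464 and is not read as a steady change. Over the same days the mesenchymal markers COL3A1 and TAGLN went from 238 to 30.5 and from 367 to 19.4, and their part in these decreases was not tested.

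Most 2-fold steps fell at the first and the last 2 intervals. From day 0 to day 1, 33 antisense records were higher and 46 lower, against 3.95% and 3.21% of all records. From day 1 to day 2, 7 were higher and 8 lower (all records 0.242% and 0.270%), from day 2 to day 4, 9 and 6 (0.284% and 0.672%), and from day 4 to day 5, across the move to new wells, 7 and 11 (0.332% and 0.166%). From day 5 to day 11, 16 were higher and 32 lower (1.70% and 4.18%), and from day 11 to day 18, 8 and 33 (0.914% and 3.68%). As shares of 991, these were 3.33% and 4.64% at the first step and 0.807% and 3.33% at the last. At the 3 middle steps the antisense shares lay between 0.605% and 1.11%, above the background except for the lower calls from day 2 to day 4. Other lincRNA records lay in a similar range at these steps. Their shares were 0.723% higher and 0.844% lower from day 1 to day 2. They were 1.02% and 0.844% from day 2 to day 4, and 0.663% and 0.422% from day 4 to day 5. The median level of the 991 antisense records lay between 1.64 and 2.08 FPKM on each day. That of other lincRNA records lay between 2.96 and 3.86 and that of coding records between 8.11 and 12.1. The part of the lower level in these shares was not tested.

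**Figure D2:**
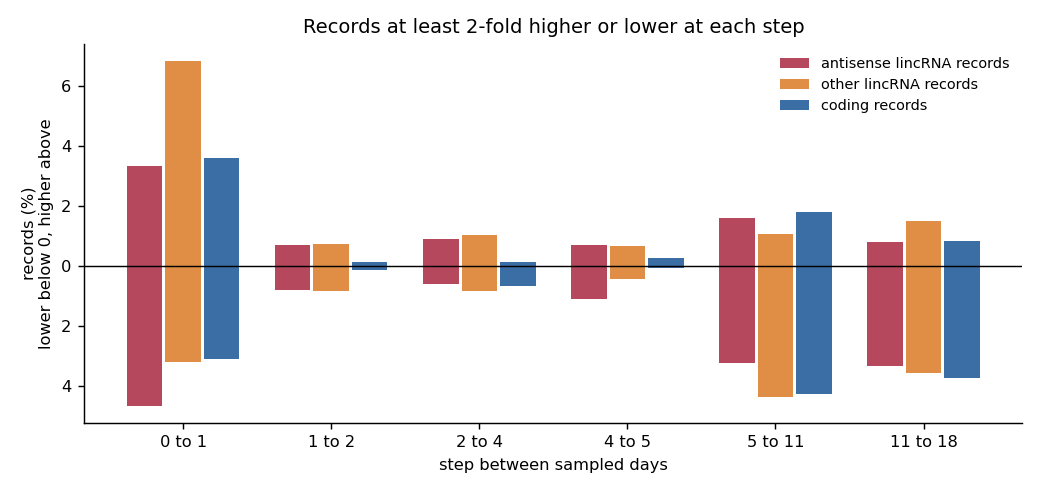
Share of records (percent) that were at least 2-fold higher (above 0) or lower (below 0) at each step between sampled days, among 991 antisense lincRNA records, 1659 other lincRNA records and 11793 coding records whose mean reached 1 FPKM. The antisense shares are largest from day 0 to day 1, at 3.33% higher and 4.64% lower, and stay at or under 1.11% over the next 3 steps.

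Of the 71 records higher on day 18, 23 passed the midpoint of their log2 change for good on day 1, 4 on day 2, 11 on day 4, 13 on day 5, 18 on day 11 and 2 on day 18. The shares on days 1 and 11 were 32.4% and 25.4%, against 39.1% and 20.3% of higher other lincRNA records and 25.9% and 31.5% of higher coding records. Of the 211 lower records, 31 passed it on day 1, 76 on day 11 and 66 on day 18. Among coding records that were lower, 54.4% passed the midpoint on day 11 and 15.1% on day 18, against 36.0% and 31.3% of the antisense records. For other lincRNA records that were lower, the shares were 41.6% and 19.2%. Over the 426 antisense records whose log2 level spanned at least 1, the day of the highest value was day 0 for 191 (44.8%), day 11 for 60 (14.1%) and day 18 for 44 (10.3%). The coding shares were 55.4%, 6.25% and 11.97%, and those of other lincRNA records were 39.5%, 9.99% and 10.1%.

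Each antisense record was then set beside the gene in its name. A coding record with that symbol was found for 6283 of 6609, and in 883 pairs both had a mean of at least 1. The antisense record was above its gene in 44 of them, and the median ratio of their mean FPKM was 0.109. Over the 7 days, the log2 levels of a pair had a median Pearson correlation of 0.72, positive in 762 of 883 pairs, and of 0.93 in the 246 pairs in which both spanned at least 1. The 2 records of a pair share libraries and, where exons overlap, reads, so these correlations are a description. Both were at least 2-fold lower in 138 pairs and both higher in 24, among 272 genes lower and 38 higher. In 936 pairs of other lincRNA records and the gene in their name, the median correlation was 0.38.

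The changes of antisense record and gene differed by at least 1 on the log2 scale in 125 of 883 pairs (14.2%), against 28.0% of all 1819 lincRNA pairs. In 96 of them the antisense record gained on the gene and in 29 it lost. In 56 the gene was at least 2-fold lower while the antisense record moved by less than 2-fold. The 1819 lincRNA pairs include these 883. Of the 936 pairs of other lincRNA records, 384 diverged (41.0%), with the lincRNA record gaining in 211 and losing in 173. Opposite 2-fold changes were seen in 4 antisense pairs, against a background of 2.31% of all lincRNA pairs. Of the 854 pairs in which the exons of record and named gene overlap, 117 diverged (13.7%), and of the 29 without 8 did (27.6%). By GENCODE overlap, 45 of 381 pairs with at least 50% of exon bases covered diverged (11.8%), and 24 of 101 with under 10% (23.8%). No difference between these shares was tested. Where the antisense record overlaps neither annotation's coding exons, 12 pairs remained, of which 3 diverged.

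**Figure D3:**
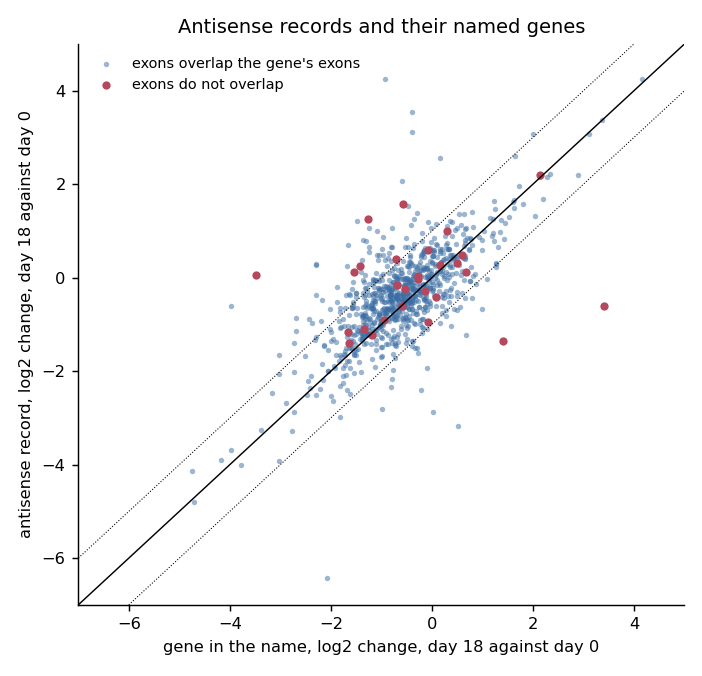
Log2 change in FPKM + 0.1 from day 0 to day 18 of each antisense record (vertical) against that of the gene in its name (horizontal), for 883 pairs; the solid line marks equal change and the dotted lines a difference of 1. Most pairs lie between the dotted lines, 96 lie above them and 29 below, and 8 of the 29 pairs without exon overlap lie outside them.

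The 4 opposite pairs were linc-PXDN-AS, linc-PPM1F-AS, linc-POLD4-AS and linc-MARCH1-AS. linc-PXDN-AS (chr2:1651409-1658381, plus strand) lies within PXDN, which encodes the basement membrane enzyme peroxidasin, and was listed at 1.32, 1.28, 1.90, 1.39, 2.12, 3.12 and 3.20. PXDN had 37.7, 29.5, 30.8, 25.4, 24.9, 19.4 and 13.4, a log2 change of -1.48 against 1.22 for the antisense record, and the correlation over the 7 days was -0.84. linc-PPM1F-AS (chr22:22292644-22297764, plus strand), matched to GENCODE's PPM1F-AS1, had 0.686, 1.02, 0.816, 1.13, 1.55, 1.84 and 1.53, and PPM1F, a phosphatase, had 14.2, 10.3, 9.83, 8.60, 7.74, 6.28 and 5.96. Its only intron runs from GC to AG. In both pairs the antisense record was higher on each of days 5, 11 and 18 than on any earlier day, and the gene was lower.

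linc-POLD4-AS (chr11:67084185-67159158, plus strand) had 0.832, 1.79, 2.55, 2.33, 1.97, 2.11 and 2.14, and POLD4, a small subunit of DNA polymerase delta, had 10.8, 12.2, 13.6, 11.3, 14.1, 5.49 and 4.45. The record covers the gene without touching its exons, and 818 of its 5615 exon bases belong to the protein-coding gene RAD9A on the same strand. linc-MARCH1-AS (chr4:165118010-165118988, plus strand) had 33.8, 25.9, 26.5, 26.6, 22.8, 19.6 and 13.1 and MARCH1, a ubiquitin ligase, 2.00, 3.56, 5.28, 4.20, 4.89, 3.45 and 5.47. It lies in an intron of MARCH1 by the files' models, where 68.8% of its 882 exon bases are over ANP32C, an intronless coding record on the other strand. Both introns of linc-MARCH1-AS run from AT to AC. Over ANP32C the reads of the 2 strands cannot be told apart, so the level of linc-MARCH1-AS is uncertain. Measured against the median of all records, none of these 4 kept 2-fold changes in both directions: PXDN moved by -0.92, PPM1F by -0.68, POLD4 by -0.70 and linc-MARCH1-AS by -0.80. By that measure, the opposite pairs were linc-PSMG1-AS, at 3.19, 3.93, 4.49, 4.48, 5.26, 5.57 and 5.24 while PSMG1, a proteasome assembly factor, had 39.0, 28.0, 23.4, 27.3, 22.7, 18.3 and 12.2, and linc-MCF2L-AS.

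In other pairs the antisense record gained on a gene that was steady or lower. linc-FARP1-AS (chr13:99047237-99063877, minus strand), in the gene of a guanine exchange factor of dendrites, had 0.903, 1.12, 1.28, 1.90, 2.32, 4.42 and 4.12 while FARP1 had 35.8, 27.4, 28.3, 24.6, 23.3, 22.0 and 23.7, a correlation of -0.86. It has no GT-AG intron, and 81.2% of its exon bases lie over GENCODE protein-coding exons. linc-MAMDC2-AS (chr9:72819649-72874418, minus strand), matched to SMC5-DT, had 8.18, 6.81, 7.08, 8.41, 7.53, 7.66 and 5.35, a log2 change of -0.60, while MAMDC2, a proteoglycan gene, had 6.58, 2.01, 1.72, 0.837, 1.72, 0.279 and 0.325.

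The same form, a steady antisense record beside a declining gene, was seen in several pairs. linc-PCGF5-AS (chr10:92965207-93373503, minus strand) had 1.45, 1.58, 1.26, 1.40, 1.51, 2.24 and 1.51, and PCGF5, a Polycomb group protein, had 43.4, 26.0, 19.7, 20.1, 16.6, 7.16 and 3.79. By the files' models, linc-PCGF5-AS overlaps no exon of PCGF5, and 10.2% of its exon bases lie over exons of another gene, HECTD2. GENCODE protein-coding exons cover 39.2% of them. linc-FBXO5-AS had 1.78, 1.16, 1.20, 1.30, 1.40, 1.88 and 2.20, and FBXO5, the inhibitor of the anaphase-promoting complex, had 31.5, 18.4, 17.5, 20.2, 14.7, 14.3 and 6.36. Of the exon bases of linc-FBXO5-AS, 4.77% lie over exons of FBXO5 and 7.50% over another gene, MTRF1L. The markers of dividing cells fell over the same days, and their part in the course of FBXO5 was not tested. linc-OPN3-AS had 3.34, 4.69, 4.81, 6.23, 4.78, 5.94 and 4.06, and OPN3, an opsin, had 8.28, 6.28, 4.59, 3.36, 3.25, 3.06 and 1.61; 38.1% of its exon bases lie over another gene, CHML. linc-BCL7C-AS, outside the gene and matched to MIR762HG, had between 1.25 and 1.69 FPKM on every day, while BCL7C went from 49.2 to 18.3. linc-CHCHD3-AS was listed at 2.67, 2.93, 4.15, 4.35, 3.73, 3.83 and 2.90, and CHCHD3, a mitochondrial cristae protein, at 42.9, 37.3, 37.1, 33.6, 28.7, 19.4 and 14.7. By the files' models, linc-CHCHD3-AS overlaps no exon of CHCHD3, and 5.05% of its exon bases lie over a coding record named EEF1G. Among other pairs without exon overlap, linc-NBPF16-AS, in a family of near-identical genes, gained 2.14, linc-SCFD1-AS 1.11, linc-ZNF626-AS, with 2 failed steps, 0.69 and linc-PAFAH1B1-AS 0.67, the last lying wholly over GENCODE protein-coding exons.

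**Figure D4:**
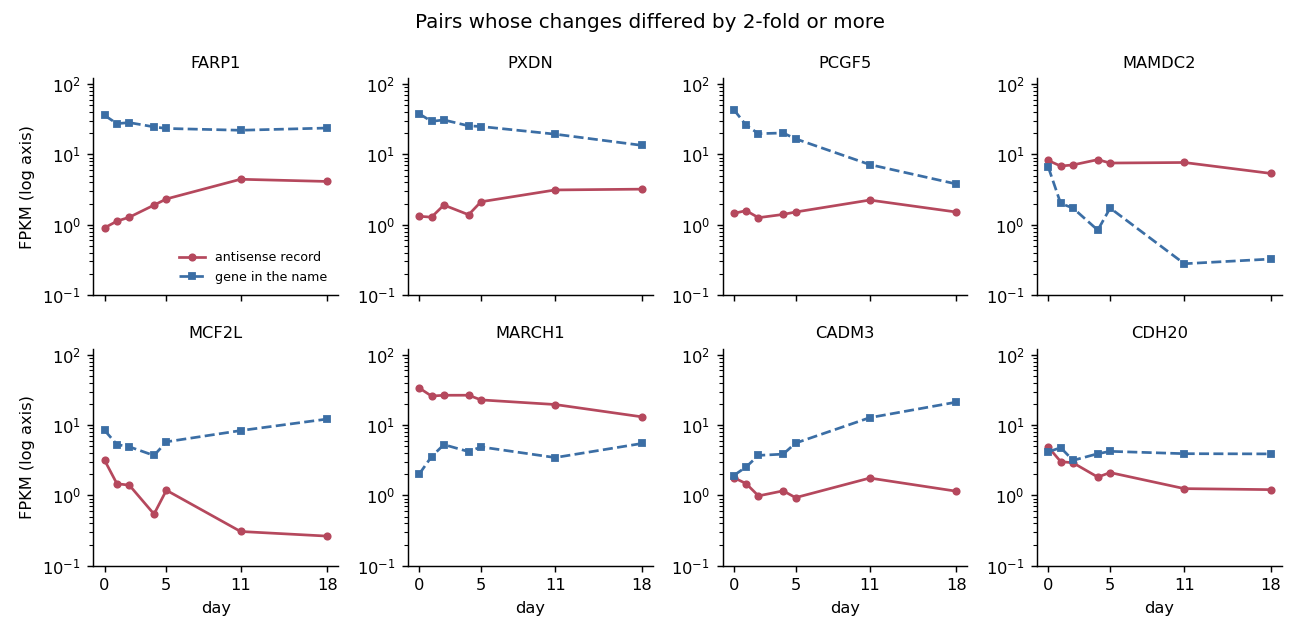
FPKM (log axis) by day of 8 antisense records (red circles) and of the gene in each name (blue squares), single values with no error. linc-FARP1-AS and linc-PXDN-AS climb while their genes do not, linc-PCGF5-AS and linc-MAMDC2-AS stay within 2-fold while their genes decline, linc-MCF2L-AS, linc-MARCH1-AS and linc-CDH20-AS end more than 2-fold lower than they began while MCF2L drops to 3.70 on day 4 and ends at 12.2, MARCH1 ends higher and CDH20 ends within 2-fold, and linc-CADM3-AS stays low while CADM3 climbs from 1.92 to 21.2.

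Apart from linc-ANP32E-AS with its days at 0, linc-CADM3-AS and linc-MCF2L-AS lost most on their genes. linc-CADM3-AS (chr1:159134464-159158013, minus strand) reaches across the 5′ end of CADM3, a synaptic adhesion molecule, without overlapping its exons, and had 1.79, 1.48, 0.985, 1.16, 0.930, 1.77 and 1.15, whereas CADM3 had 1.92, 2.54, 3.71, 3.87, 5.55, 12.8 and 21.2. Their changes differed by -3.997. linc-MCF2L-AS (chr13:113662681-113677201, minus strand), within a guanine exchange factor gene, had 3.17, 1.47, 1.40, 0.543, 1.19, 0.307 and 0.264, and MCF2L had 8.44, 5.29, 4.92, 3.70, 5.78, 8.36 and 12.2, so the gene was lower along with the antisense record until day 4 and then higher. For linc-MCF2L-AS 0.596% of the exon bases overlap the gene's exons, and both of its introns run from GT to AG. linc-CDH20-AS (chr18:59213022-59295562, minus strand), with 13 introns from GT to AG, had 4.87, 3.03, 2.91, 1.82, 2.11, 1.25 and 1.21, and CDH20, a cadherin, had 4.17, 4.78, 3.15, 3.92, 4.23, 3.92 and 3.89. linc-RGS12-AS had 2.61, 1.55, 1.94, 1.56, 1.51, 0.738 and 0.414 and RGS12, a regulator of G-protein signalling, 27.7, 24.3, 26.5, 24.0, 24.5, 25.7 and 23.9. linc-RUFY3-AS had 3.82, 4.46, 4.46, 3.93, 4.38, 3.27 and 2.36, while RUFY3, which acts in axon growth, had 29.8, 33.9, 37.6, 40.3, 43.99, 52.3 and 59.2, higher at every later day than at the one before.

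Relative to the gene, linc-RCN1-AS changed by -1.80, linc-KRBA2-AS by -1.90 and linc-ABHD5-AS by -2.90, the last with 96.6% of 475 exon bases over the gene and an AT-AC intron. Among pairs without exon overlap, linc-DMTF1-AS changed by -0.94 while DMTF1 changed by -0.08, and linc-CNTFR-AS, linc-CCDC23-AS, linc-WDFY3-AS, linc-FAM22A-AS and linc-C6orf1-AS differed from their genes by at most 0.55.

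Without exon overlap by the files' models, 9 pairs had both members spanning at least 1, and the 5 most alike had correlations from 0.95 to 1.00 over the 7 days. linc-CSRNP3-AS (chr2:166538280-166561699, minus strand), outside the gene, had 2.03, 2.28, 2.36, 3.25, 4.29, 7.56 and 9.68, and CSRNP3, a nuclear factor gene of neurons, had 3.01, 3.28, 3.38, 4.80, 6.23, 10.6 and 13.5. linc-RNASEH1-AS (chr2:3589017-3594405, plus strand) had 16.9, 12.3, 10.8, 11.9, 11.4, 8.85 and 6.35, and RNASEH1, which degrades RNA in RNA-DNA hybrids, had 15.1, 10.7, 9.65, 10.1, 9.09, 6.68 and 4.74. GENCODE protein-coding exons of the other strand cover 99.1% of the exon bases of linc-RNASEH1-AS, 68.7% of linc-CSRNP3-AS and 57.4% of linc-C19orf55-AS, so these records do overlap coding exons in that annotation. linc-STON2-AS and the linc-ZNF69-AS record given here overlap neither annotation's coding exons. linc-STON2-AS, which matches the GENCODE pseudogene DYNLL1P2 on its own strand, had 11.6, 8.47, 9.98, 9.25, 9.06, 6.12 and 5.09, and STON2, an endocytic adaptor, had 6.27, 4.77, 4.22, 4.60, 4.14, 2.74 and 1.92. A linc-ZNF69-AS record (chr19:11982677-12027021, minus strand) had 1.51, 2.43, 2.18, 3.86, 3.75, 3.02 and 1.83, and ZNF69 had 7.86, 13.2, 12.3, 17.1, 16.4, 12.6 and 8.85, both highest on day 4. The only intron of that linc-ZNF69-AS record runs from AT to AC, and its shortest terminal exon is 7 bases long.

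linc-BDNF-AS (chr11:27604484-27720364, plus strand) is given because BDNF was in the medium; it was chosen after its values were seen. It had 0.574, 2.03, 2.19, 2.11, 3.38, 1.38 and 1.31 FPKM, highest on day 5, and the BDNF record had 1.13, 0.818, 1.79, 1.08, 0.652, 0.424 and 1.12. The changes from day 0 to day 18 differed by 1.08, but the record was lower on days 11 and 18 than on days 1 to 5.

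Grouped by the first letters of the gene symbol in the name, 256 of the 991 records fell in 14 groups, which a symbol can join without sharing the group's function, and the records named below were chosen after their values were seen. The 9 records that face genes of the extracellular matrix, integrins and proteases had the lowest median log2 change, -0.97 (-0.41 against the median of all records), with 4 lower and none higher. Beside linc-ADAMTS12-AS and linc-MMP2-AS these were linc-COL8A1-AS (3.34 to 0.259 FPKM; gene log2 change -3.38) and linc-TNC-AS (4.86 to 0.777; -2.30), facing a collagen and tenascin C. The mesenchymal markers COL3A1 and TAGLN moved with them, and their part was not tested. Of 10 records whose gene has a symbol like those of signalling ligands, receptors and inhibitors, 2 (linc-DLL1-AS and linc-BDNF-AS) were higher and 4 lower, of which linc-IGF2BP1-AS faces an mRNA-binding protein gene. linc-DLL1-AS, over the Notch ligand DLL1, went from 0.251 to 1.54 with a change of 2.22 against 2.34 for the gene. linc-EGFR-AS went from 2.66 to 0.746 and linc-FGFR1-AS, over an FGF receptor, from 5.10 to 2.19.

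Of 40 records that face ribosomal proteins and translation factors 14 were lower and 1 higher, with a median of -0.70 (-0.14 against the median of all records) where the median of their genes was -0.35, and 10 of 39 pairs diverged. Over all 883 antisense pairs 14.2% diverged, and over all 1819 lincRNA pairs 28.0% did. linc-RPLP0-AS went from 7.76 to 2.48 with a change of -1.61 against -0.28 for the gene, and linc-RPS18-AS from 6.06 to 2.06, -1.51 against -0.34. In contrast, linc-RPS15A-AS went from 2.36 to 5.53. Ribosomal protein genes have many near-identical pseudogene copies, so these values are uncertain. For 54 records that face zinc finger genes, 5 were higher and 1 lower, with a median of 0.16 (0.72 against the median of all records), and 2 of 51 pairs diverged. linc-ZNF793-AS went from 2.07 to 6.56, with changes of 1.62 and 1.60 for record and gene. For 26 records that face RNA-binding and splicing factors, none was higher and 6 were lower, and the median was -0.49 (0.07 against the median of all records) where that of their genes was -1.13.

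Of 19 records that face ubiquitin and proteasome genes, 1 was higher and 4 lower, with a median of -0.03 (0.53 against the median of all records) where 10 genes were lower and the genes' median was -1.09. Among the 5 that face ion channels and neurotransmitter receptors 3 were higher, among them linc-GRM6-AS (0.367 to 1.87) and one of the records named linc-TRPM2-AS (0.882 to 1.93), and GRM6 and TRPM2 themselves had means under 1. Of 27 records facing transporters 4 were higher and 4 lower, of 16 facing histone and chromatin genes 1 (a linc-SMARCA4-AS record listed at 0 on day 0) and 2, of 13 facing cytoskeleton genes 1 and 2, of 10 facing adhesion molecules 1 and 2, and of 5 facing axon guidance genes none and 2. Of 16 records whose gene has a CDK, CDC, KIF, POL or similar symbol, 3 were higher (linc-KIF1B-AS, linc-KIF21A-AS and linc-POLD4-AS) and 2 lower (linc-KIF1C-AS and linc-CDC42EP3-AS). KIF1B, KIF21A and KIF1C are kinesins that carry cargo and CDC42EP3 is an effector of CDC42, so POLD4 alone of these 5 is a gene of DNA replication. Of 6 whose gene has a TCF, MYC or similar symbol, 1 was higher (linc-MXD4-AS) and 2 were lower, linc-MYCN-AS and a linc-TCF25-AS record. These counts stand beside 7.60% higher and 28.5% lower over all records, and no group was tested.

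**Figure D5:**
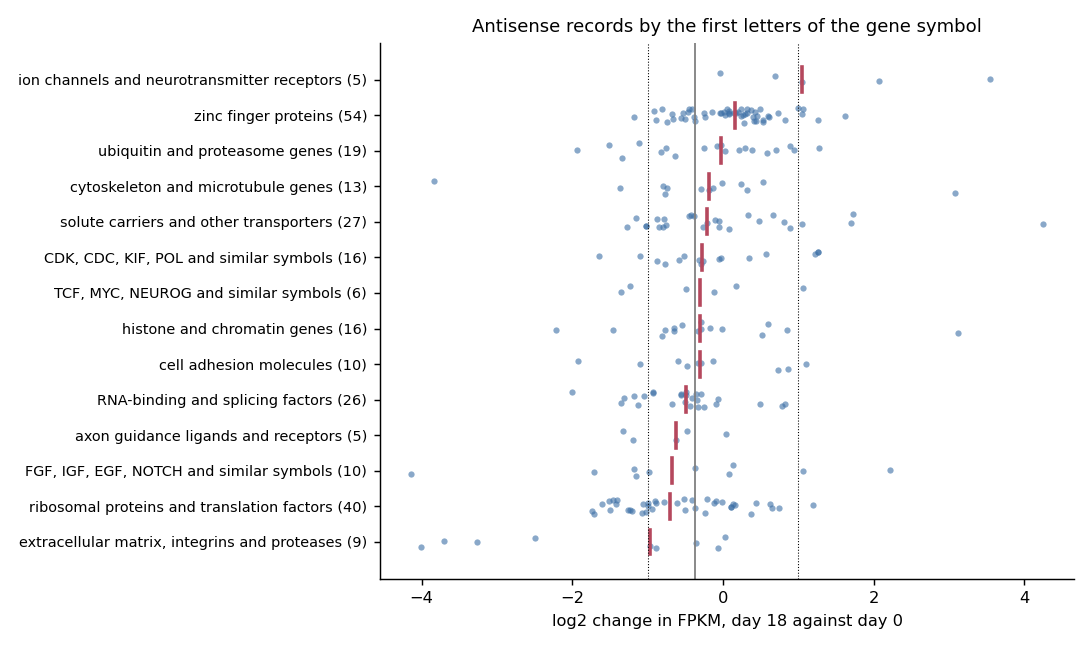
Log2 change in FPKM + 0.1 from day 0 to day 18 of 256 antisense records, grouped by the first letters of the gene symbol in the name, with the number of records in brackets; each point is 1 record, red bars are group medians, the grey line is the median of all 991 antisense records (-0.37) and dotted lines mark 2-fold changes. The records facing matrix genes have the lowest median, and those facing ion channels and zinc finger genes have the only medians above 0.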

How the data were processed

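Polyadenylated RNA of H1-derived neural progenitors, 3 cultures a day and 2 on day 5, was sequenced in pairs. Per the labels and the study's methods, the authors aligned reads to hg19 with TopHat2, assembled them with Cufflinks and ran Cuffdiff2 (versions not given in the sources used here), and the deposited FPKM is 1 value per record and day over all cultures, so no test, interval or depth could be had. The deposited record table also holds a codon substitution score (CSF) made by the authors, a pseudogene flag, exon positions and a status for each step. Its fold changes, test statistics, p and q values are the authors' own comparisons and were not used.

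Members were chosen by name and flag, and members and lists were chosen with earlier results of these data known. Changes are differences of log2(FPKM + 0.1), a pseudocount of 0.1, over records with a mean of at least 1 FPKM over the 7 days, and a call is an absolute change of at least 1. Named records are the 10 highest, the 10 largest increases and the 10 largest decreases, for pairs the 8 largest gains and 8 largest losses with and without exon overlap, every opposite pair and the 5 most alike pairs without overlap. Introns, start windows and sequences were read from GRCh37, which has the coordinates of hg19, and gene overlaps from GENCODE release 44 lifted to it. Each of 37315 records on reference chromosomes lay within its chromosome's length. Alternatives were another pseudocount, no filter, a 4-fold change, recentring, records without exon overlap, single-symbol genes and grouped days. Python 3.11.15, pandas 2.3.3, numpy 2.4.6, pysam 0.24.0 and bedtools 2.31.1 were used, and the calls were tested on simulated data. Some items that meet these rules are not reported here.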

Additional observations from a re-analysis of the deposited data

How the results depend on the processing

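No paired analysis was possible because the files hold 1 value per record and day over all cultures. Leaving out each replicate in turn and the fit with the replicate number as a block were therefore not run, and nothing below measures the spread between cultures. Of 80 recomputed counts, 22 stayed within 1.5 times. The counts are given in the order of records higher and lower on day 18, records changed at the 6 steps, and pairs diverging and opposite, which were 71, 211, 79, 15, 15, 18, 48, 41, 125 and 4. With a pseudocount of 1 they were 29, 115, 24, 7, 8, 6, 17, 7, 129 and 1. Without the filter on low values they were 320, 647, 377, 176, 190, 142, 240, 179, 1758 and 23. With a 4-fold change they were 20, 43, 3, 5, 6, 2, 11, 3, 24 and 0. Recentred on the median they were 163, 78, 69, 15, 15, 20, 47, 24, 125 and 2. Increases from day 0 to day 18 then outnumbered decreases, as they did over all records. Without exon overlap with any coding record they were 6, 7, 2, 0, 1, 0, 0, 0, 5 and 1, from 33 records. Days 11 and 18 against days 0, 1 and 2 gave 42 higher, 87 lower, 56 diverging and 1 opposite, and genes with a single symbol gave 120 diverging and 4 opposite. Other alternatives were chosen after seeing the data. Records with a GT-AG intron gave 52, 115, 49, 3, 6, 8, 29, 20, 79 and 2, day 11 against day 0 gave 82 higher, 106 lower, 92 diverging and 2 opposite, and leaving out failed estimates gave 69 higher and 201 lower. Fewer records enter the counts limited to a kind of record, and for the other alternatives the cause was not tested.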
